A study of Rattus norvegicus with 6 samples.

Results

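The genes described here encode the protein part of plasma lipoproteins and the factor that loads lipid onto them. They are Apoa1, Apoa2, Apoa4, Apoa5, Apob, Apoc1, Apoc2, Apoc3, Apoe and Mttp, and they were chosen by name. Every non-control probe whose RefSeq accession belongs to one of these rat genes was used, which gave 16 probes for 10 genes, out of 61657 probes and 15278 named genes on the array. Apob had 5 probes, Apoc3 and Mttp had 2 each, and each of the other genes had 1. All 16 probes were well above background on all 6 arrays, so no member was lost to the filter on dim probes.

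Liver RNA came from male Sprague-Dawley rats, strain Crl:CD(SD), bought at 5 weeks of age and kept on a basal diet. In the ADBAQ group, 3 rats received 1-amino-2,4-dibromoanthraquinone, an anthraquinone dye intermediate, at 1000 mg/kg/day. In the vehicle group, 3 rats received the carrier alone, given as corn oil or as purified water depending on the label. The labels also disagree on the treatment time, which is 9 weeks in one and 28 days in the others. Each rat had its own 1-colour Agilent array.

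Apolipoproteins are made mainly by hepatocytes and, for some, by the enterocytes of the small intestine. Apob is the scaffold of very low density lipoproteins (VLDL), and MTTP, the microsomal triglyceride transfer protein, loads lipid onto it in the endoplasmic reticulum. Small exchangeable apolipoproteins then govern how fast lipases and receptors clear the particles, and APOA1 builds high density lipoproteins (HDL).

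Values below are log2 of the processed signal relative to the array's 75th percentile, so 0 is the level of the probe at that percentile and a step of 1 is a doubling. A gene was called when limma's moderated test had a Benjamini-Hochberg adjusted p under 0.05 over all probes tested. The ADBAQ arrays shared one slide and one scan day and the vehicle arrays another slide and day, so slide, scan day and treatment cannot be told apart. The 75th percentile of the signal was 643, 570 and 596 on the ADBAQ arrays, against 455, 461 and 433 on the vehicle arrays. Correlation between arrays over the probes kept was at least 0.992 within ADBAQ, at least 0.989 within vehicle and at most 0.981 between the groups. The number of arrays limits the precision. All 17 hepatocyte markers listed were above background.

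Of the 10 genes, 6 were called lower in ADBAQ livers and none higher. These were Apoa4, Apoc3, Apoa5, Apob, Apoc1 and Apoe, and all 6 stayed called without the filter on dim probes. Among all 11338 genes tested, 11.3% were called lower and 9.06% higher. The median log2 fold change of the 10 genes was -0.53, against -0.04 over all genes. In 7 of the 10, all ADBAQ values lay below all vehicle values, which held for 25.1% of all genes. In none did all ADBAQ values lie above, which held for 21.2% of all genes. With any 1 array left out, 5 of the 10 were called lower, the one lost being Apoe. The directions are relative to the 75th percentile. On the scale of the spike-in controls the median of all genes lay 0.757 higher, and only Apoa4 and Apoc3 were then called lower, with Apoe and Mttp called higher. With quantile normalization Apoa4, Apoc3, Apoa5 and Apob were called lower and no member higher.

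**Figure D1:**
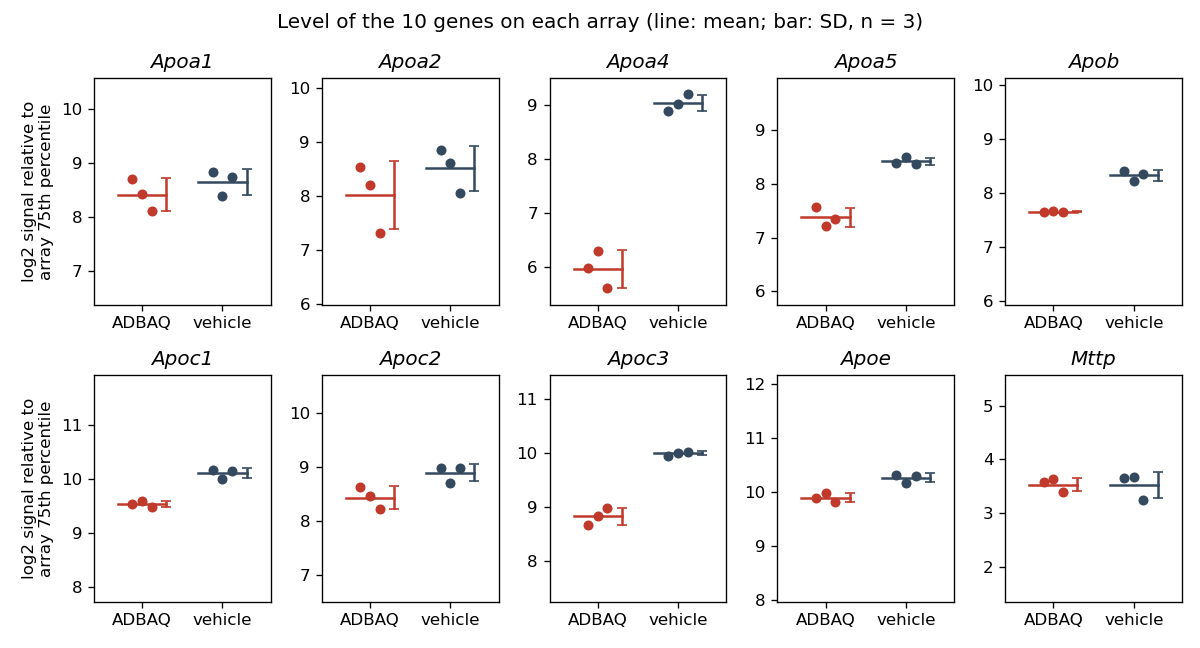
Level of each of the 10 genes on the ADBAQ arrays (red, left) and the vehicle arrays (dark, right), as log2 signal relative to the array's 75th percentile. Points are arrays, the line is the mean and the bar the SD of 3 arrays; every panel spans the same range of log2 units. Apoa4 shows the widest gap, 5.96 in ADBAQ and 9.04 in vehicle, while the Mttp groups overlap.

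Apoa4 encodes apolipoprotein A-IV, a lipoprotein component of intestine and, in rodents, liver. Its level was 5.98, 6.29 and 5.60 in ADBAQ livers, against 8.89, 9.03 and 9.20 in vehicle livers. All ADBAQ arrays were far below all vehicle arrays, with a gap between the groups several times the range within either. The mean was 5.96 ± 0.35 in ADBAQ and 9.04 ± 0.15 in vehicle (SD, n = 3 rats each). The log2 fold change was -3.08 ± 0.19 (SE; limma adjusted p = 0.00129), so the signal was 8.46-fold lower in ADBAQ. Of all genes tested, 0.2% had a lower log2 fold change. The call held in all 15 alternative settings, with values from -3.25 to -2.32.

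The promoters of Apoa4 and Apoa5 are shown because these are the called members with the largest falls among the 5 members that the RefSeq promoter table holds. Each runs from 250 bases before to 50 bases after the start site, 5′ to 3′ on the plus strand of build GRCr8, at chr8:55435529-55435828 for Apoa4 and chr8:55457621-55457920 for Apoa5. For Apoa5, which has 2 start sites in the table, the one further upstream was taken. Capitals mark AAAGTCCA (part of the binding motif of the hepatocyte factor HNF4A), AGGTCA (the core element of nuclear receptors) and CACGTG (an E-box), each searched on both strands.
Apoa4: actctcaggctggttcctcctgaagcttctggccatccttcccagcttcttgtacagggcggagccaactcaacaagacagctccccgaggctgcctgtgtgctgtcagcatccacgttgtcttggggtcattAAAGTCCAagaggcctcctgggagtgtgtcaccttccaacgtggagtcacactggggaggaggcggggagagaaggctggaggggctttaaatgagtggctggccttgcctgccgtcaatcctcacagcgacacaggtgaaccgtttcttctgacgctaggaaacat
Apoa5: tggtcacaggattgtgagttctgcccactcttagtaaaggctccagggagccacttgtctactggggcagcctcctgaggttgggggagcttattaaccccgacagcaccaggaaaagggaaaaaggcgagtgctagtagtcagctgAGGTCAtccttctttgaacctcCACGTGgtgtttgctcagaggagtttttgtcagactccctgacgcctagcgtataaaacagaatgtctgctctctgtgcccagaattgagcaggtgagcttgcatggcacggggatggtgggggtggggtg

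The Apoa4 window held 1 AAAGTCCA and neither of the other motifs, and the Apoa5 window held 1 AGGTCA and 1 CACGTG. Among 33469 promoter windows of the same length, 1.37% held AAAGTCCA, 16.2% AGGTCA and 6.42% CACGTG. Neither window held GCGTG, the core of the aryl hydrocarbon receptor element, which 29.7% of windows held, nor TGACNNNGC, the core of the antioxidant element, which 12.1% held. The motifs do not overlap one another in these windows, and the matches are descriptions of sequence only.

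Apob and Mttp form the assembly step, and they differed. The Apob probe used for the gene read 7.64, 7.67 and 7.65 in ADBAQ livers, against 8.42, 8.22 and 8.34 in vehicle livers. The groups did not overlap, and the ADBAQ values lay within 0.02 (SD) of their mean. The difference on the log2 scale was -0.67 ± 0.09 (SE, limma adjusted p = 0.00845), or 1.59-fold lower in ADBAQ. All 5 Apob probes were lower on every ADBAQ array than on any vehicle array. Their log2 fold changes ran from -0.67 to -0.28, and 4 of the 5 were called (the exception, A_44_P402339, had an adjusted p of 0.113). With spike-in scaling the Apob value was 0.08 (adjusted p = 0.495), which lies below the median of all genes on that scale. The long and the short form of the protein come from one gene by mRNA editing, and array probes of this kind do not tell them apart.

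Mttp read 3.57, 3.63 and 3.40 in ADBAQ livers, against 3.66, 3.68 and 3.24 in vehicle livers. The groups overlapped throughout. Its log2 fold change was 0.01 (95% interval -0.35 to 0.36; limma adjusted p = 0.975), and its second probe had 0.21 (-0.13 to 0.56). With spike-in scaling Mttp was called higher by 0.76 (adjusted p = 0.005), close to the median of all genes on that scale.

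**Figure D2:**
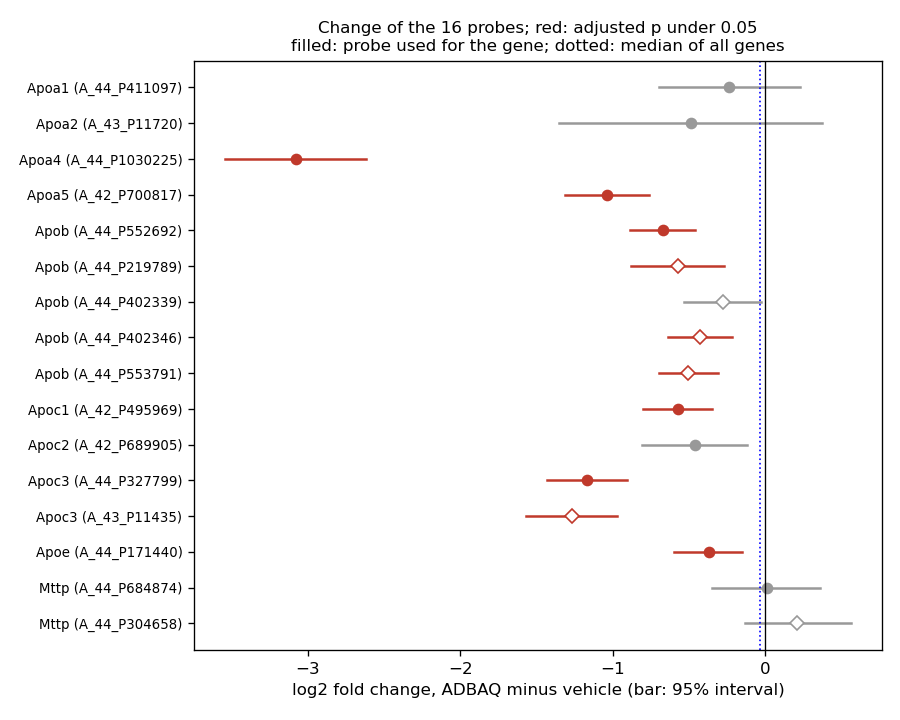
Log2 fold change, ADBAQ minus vehicle, of all 16 probes with the 95% interval; red probes had an adjusted p under 0.05, filled points are the probe used for the gene, and the dotted line is the median of all genes. The 5 Apob probes and both Apoc3 probes lie below 0, and both Mttp intervals include 0.

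Apoa1 and Apoa2 encode the main structural proteins of HDL. Apoa1 read 8.71, 8.44 and 8.11 in ADBAQ livers, against 8.84, 8.39 and 8.74 in vehicle livers. Apoa2 read 8.54, 8.21 and 7.31 in ADBAQ livers, against 8.86, 8.61 and 8.06 in vehicle livers. For both, the groups overlapped, and ADBAQ replicate 3 was the lowest array of all. Neither passed the test: the log2 fold change of Apoa1 was -0.24 (95% interval -0.70 to 0.23; limma adjusted p = 0.414) and that of Apoa2 -0.49 (-1.35 to 0.37; adjusted p = 0.362). The intervals are wide, and that of Apoa2 includes a change as large as that of Apob. Both values were positive with spike-in scaling, 0.52 for Apoa1 and 0.26 for Apoa2, and not called.

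Apoa5 and Apoc3 act on the same step in opposite directions: APOA5 promotes the hydrolysis of plasma triglyceride by lipoprotein lipase, and APOC3 inhibits it and slows the uptake of remnants. Apoa5 read 7.57, 7.22 and 7.34 in ADBAQ livers, against 8.39, 8.49 and 8.36 in vehicle livers. The groups stood clearly apart. Apoa5 had a log2 fold change of -1.04 ± 0.12 (SE, limma adjusted p = 0.00531), or 2.05-fold lower in ADBAQ. Its call was lost in 1 alternative, spike-in scaling (-0.28, adjusted p = 0.0861).

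Apoc3 read 8.66, 8.83 and 8.98 in ADBAQ livers, against 9.96, 10.01 and 10.02 in vehicle livers. The vehicle arrays were nearly alike, and every ADBAQ array was lower. Apoc3 had a log2 fold change of -1.17 ± 0.11 (SE, limma adjusted p = 0.0034), or 2.25-fold lower in ADBAQ. Its second probe gave -1.27 ± 0.13 (adjusted p = 0.00401). The call held in all 15 alternatives, with values from -1.25 to -0.42. The inhibitor and the activator of lipolysis were thus both lower relative to the 75th percentile.

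Apoc2, Apoc1 and Apoe ride on VLDL and HDL. APOC2 is the obligate cofactor of lipoprotein lipase, APOC1 hinders particle uptake, and APOE is a ligand by which remnants bind their receptors. Apoc2 read 8.62, 8.46 and 8.21 in ADBAQ livers, against 8.98, 8.71 and 8.99 in vehicle livers. The groups did not overlap, but the test was not passed (-0.46 ± 0.14, limma adjusted p = 0.0705). It was called lower under 2 alternatives, normexp background correction (-0.41, adjusted p = 0.0395) and eBayes using trend and robust (-0.46, adjusted p = 0.0402).

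Apoc1 read 9.53, 9.59 and 9.48 in ADBAQ livers, against 10.17, 9.998 and 10.16 in vehicle livers. All ADBAQ arrays were lower, by more than the range within a group. The log2 fold change was -0.57 ± 0.09 (SE, limma adjusted p = 0.0128). It was -0.17 and not called with quantile normalization (adjusted p = 0.232), and 0.18 and not called with spike-in scaling (adjusted p = 0.15).

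Apoe read 9.89, 9.98 and 9.81 in ADBAQ livers, against 10.32, 10.17 and 10.31 in vehicle livers. The groups were close but did not overlap. The log2 fold change was -0.37 ± 0.09 (SE, limma adjusted p = 0.0407), the smallest among the called members. The call was lost when any 1 of the 6 arrays was left out (highest adjusted p = 0.116). With quantile normalization the value was 0.01 (adjusted p = 0.971), and with spike-in scaling Apoe was called higher (0.38, adjusted p = 0.0146). The Apoe, Apoc1 and Apoc3 probes were the brightest of the 10, reaching 78.5%, 67.1% and 61.2% of the scanner's saturation value, and no spot was flagged as saturated. Before scaling, the Apoe signal was 611210, 574030 and 534430 on the ADBAQ arrays, against 582330, 532710 and 547830 on the vehicle arrays, which overlap. The part that brightness plays in the change of these probes was not tested.

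**Figure D3:**
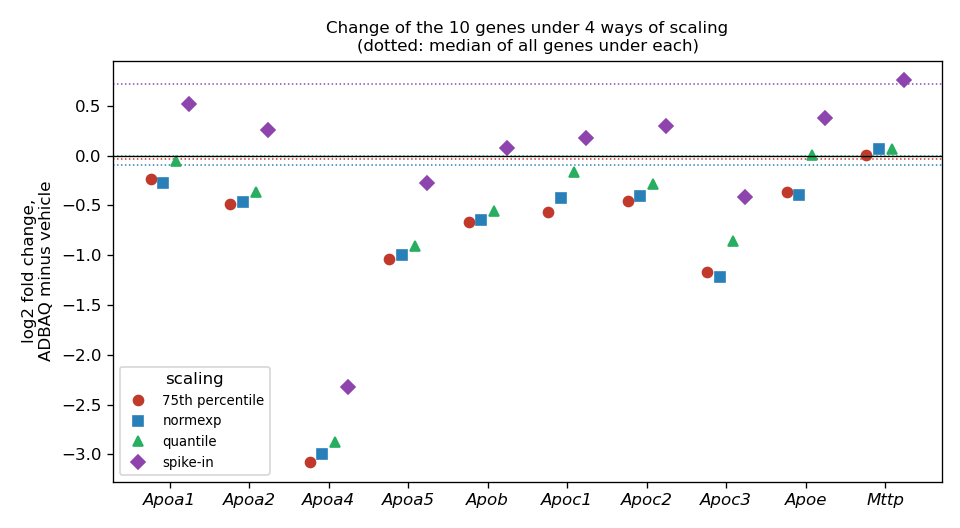
Log2 fold change, ADBAQ minus vehicle, of each gene under 4 ways of scaling, with the median of all genes under each as a dotted line. Apoa4, Apoa5 and Apoc3 lie below 0 under each, whereas Apoe runs from -0.40 to 0.38.

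Except for Apoa2, Apob and Mttp, the genes lie in 2 clusters. In RefSeq's gene order Apoa1, Apoc3, Apoa4 and Apoa5 are consecutive protein-coding genes on chromosome 8, and Apoe, Apoc1, Apoc4 and Apoc2 are consecutive on chromosome 1. The ratio of the signals of 2 genes within an array is left unchanged by scaling that array with 1 factor, as the 75th percentile and the spike-in controls do, but not by normexp background correction or quantile normalization. It was used to ask whether neighbours changed alike. The level of such a ratio has no meaning, because probes differ in brightness, but its difference between groups does. In all, 6 pairs were compared with a two-sided exact permutation test, which with 3 rats per group cannot go below p = 0.1.

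In the chromosome 8 cluster, the ratios of the other 3 genes to Apoa1 were lower on every ADBAQ array than on any vehicle array. The log2 ratio of Apoa4 to Apoa1 was -2.73, -2.14 and -2.51 in ADBAQ livers, against 0.05, 0.64 and 0.46 in vehicle livers. It was lower by 2.84 ± 0.24 (SE) in ADBAQ, which is 7.17-fold, with no overlap of the groups. The ratio of Apoc3 to Apoa1 was -0.05, 0.39 and 0.87 in ADBAQ livers, against 1.11, 1.63 and 1.28 in vehicle livers. That of Apoa5 to Apoa1 was -1.15, -1.21 and -0.77 in ADBAQ livers, against -0.46, 0.10 and -0.38 in vehicle livers. Their group differences were -0.93 ± 0.31 and -0.80 ± 0.22. All 3 pairs gave the smallest exact permutation p the design allows (p = 0.1, adjusted over the 6 pairs p = 0.12). Because all 3 share Apoa1 they are not independent, and the pairs were chosen after the data were seen.

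In the chromosome 1 cluster the changes lay closer together. The log2 ratio of Apoc1 to Apoe was -0.36, -0.38 and -0.33 in ADBAQ livers, against -0.16, -0.18 and -0.15 in vehicle livers. That is a group difference of -0.20 ± 0.02, with no overlap (exact permutation p = 0.1, adjusted p = 0.12). With normexp background correction the difference was -0.04 ± 0.03 and the groups overlapped. The ratio of Apoc2 to Apoe overlapped between the groups, with a difference of -0.09 ± 0.11 (exact permutation p = 0.5, adjusted p = 0.5). With quantile normalization that difference was -0.29 ± 0.08, without overlap. Apoc4, the remaining gene of the cluster and no member here, had a log2 fold change of -0.33 ± 0.26 (limma adjusted p = 0.39). For the assembly step, the ratio of Apob to Mttp was 4.07, 4.04 and 4.25 in ADBAQ livers, against 4.76, 4.54 and 5.10 in vehicle livers. The difference of -0.68 ± 0.18 again came without overlap (exact permutation p = 0.1, adjusted p = 0.12).

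**Figure D4:**
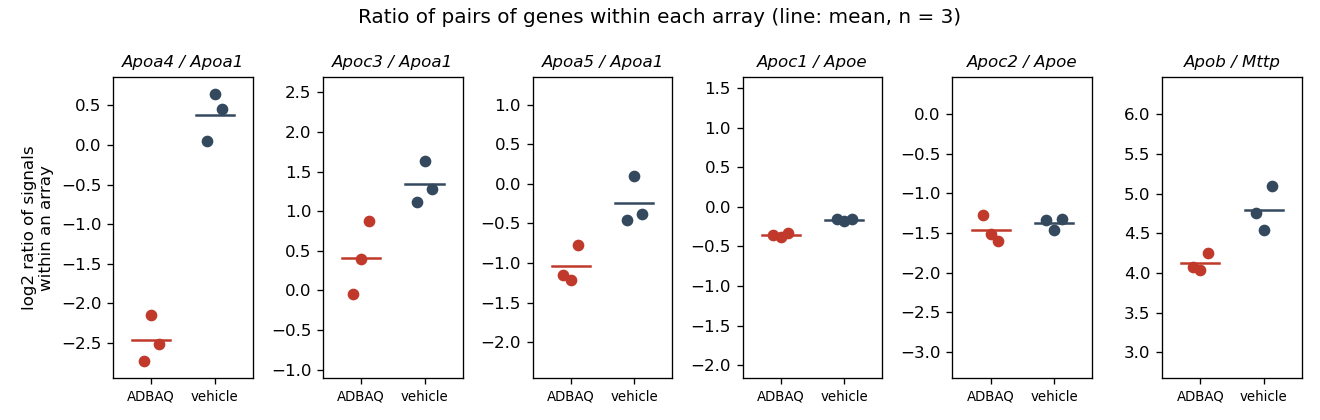
Log2 ratio of the signals of 2 genes within each array, for ADBAQ (red, left) and vehicle (dark, right), with the mean of 3 arrays as a line; every panel spans the same range of log2 units. Apoa4 to Apoa1 shows the widest gap (-2.84), and Apoc2 to Apoe overlaps.

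Apoa4 had the lowest adjusted p among the members. Over the 6 arrays, the named genes whose centred values were closest to its own were Slc29a4, Mfsd2a, Unc5d, Adam11 and Sult1c3. The root mean square difference from Apoa4 was 0.262 log2 units for Slc29a4 and between 0.40 and 0.428 for the others. Their log2 fold changes lay between -3.20 and -2.52, so this likeness is mostly that of the group difference, over arrays that also share slide and day.

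Beyond the 10 genes, 7 lists of lipoprotein genes were tested, and 24 of their tested genes (22.4%) were called lower and 5 (4.67%) higher in ADBAQ. Over all genes, against which the count of each list below is to be read, the shares were 11.3% and 9.06%. Among 10 other apolipoproteins and lipoprotein-borne proteins, 4 were lower and none higher, with a median of -0.37. Apon changed by -1.28 ± 0.14 (limma adjusted p = 0.00531), Apom, a carrier of sphingosine-1-phosphate on HDL, by -1.08 ± 0.17 (adjusted p = 0.0124), Apoh by -0.62 ± 0.09 and the HDL-bound esterase gene Pon1 by -0.33 ± 0.08 (adjusted p = 0.0373). With spike-in scaling Apoh was 0.14, Apom -0.32 (adjusted p = 0.12) and Pon1 0.42, of which Pon1 was called higher. With quantile normalization Apoh was -0.41. The Pon1 call was lost whichever array was left out (highest adjusted p = 0.109) and with quantile normalization (-0.21, adjusted p = 0.13).

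Of 6 tested genes listed for the editing of Apob mRNA, which include cofactors and relatives of the enzyme, none was called (limma). None of them had an unadjusted p under 0.05. Apobec1, the editing enzyme, averaged 1.91 ± 0.16 in ADBAQ and 1.78 ± 0.12 in vehicle (SD, n = 3 each; log2 fold change 0.13 ± 0.12, adjusted p = 0.463). A1cf, its RNA-binding cofactor, changed by 0.02 ± 0.10. With spike-in scaling, Apobec1 was called higher (0.89), near the median of all genes on that scale.

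Among 28 partners of lipidation and secretion, 6 were lower and 2 higher, with a median of -0.08. Ces1d, a carboxylesterase that mobilises stored triglyceride for VLDL, changed by -1.11 ± 0.17 (limma adjusted p = 0.0114), and Dgat2, which makes triglyceride, by -0.60 ± 0.13 (adjusted p = 0.0308). Surf4, a cargo receptor for lipoprotein export, changed by -0.41 ± 0.11 (adjusted p = 0.0486). Sel1l, of endoplasmic reticulum associated degradation, changed by -1.08 ± 0.11 and the chaperone gene Hsp90b1 by -0.87 ± 0.16. Against this direction, Soat2, which makes cholesteryl ester, rose by 0.75 ± 0.19 (adjusted p = 0.0446), and Tm6sf2, needed for full lipidation of VLDL, rose by 0.65 ± 0.10 (adjusted p = 0.0126). The call of Soat2 was lost without any of ADBAQ replicates 1 and 2 and vehicle replicates 2 and 3 (highest adjusted p = 0.12). P4hb, the partner subunit of MTTP, had -0.09 ± 0.09 (adjusted p = 0.521), so neither subunit of the transfer complex passed the test. The Surf4 call was lost whichever array was left out (highest adjusted p = 0.134), that of Dgat2 without any 1 array other than ADBAQ replicate 2 (highest 0.0923), and that of Hsp90b1 without ADBAQ replicate 3 or vehicle replicate 2 or 3 (highest 0.058). With spike-in scaling Surf4 was called higher (0.35, adjusted p = 0.028), whereas Dgat2 (0.16), Ces1d (-0.35) and Hsp90b1 (-0.12) were not called. Dgat2, Surf4 and Tm6sf2 lie outside the rule for naming genes and were chosen after their values were seen.

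Of 13 receptors and their regulators, 5 were lower and none higher, with a median of -0.33. Lrp1, a remnant receptor, changed by -1.13 ± 0.10 (limma adjusted p = 0.0034), Sorl1 by -1.63 ± 0.18 (adjusted p = 0.00544) and Lrp2 by -0.83 ± 0.21 (adjusted p = 0.0442). Sorl1 and Lrp1 were also called lower with spike-in scaling, and Lrp2 was not (-0.07, adjusted p = 0.782). Lrp2 was not called when any 1 array other than vehicle replicate 1 was left out (highest adjusted p = 0.12).

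Among 11 lipases and remodelling genes, 3 were higher and 3 lower, with a median of -0.09. Lipc, hepatic lipase, changed by -0.86 ± 0.12 (limma adjusted p = 0.00866), and Angptl4, an inhibitor of lipoprotein lipase, by -0.88 ± 0.17 (adjusted p = 0.0196). Liph, a phosphatidic acid-selective lipase, was at least 10.7-fold higher in ADBAQ on the processed signal. Its probe was not well above background on the 3 vehicle arrays. Here the bright group's mean is set against the lowest detected signal of each array of the dim group or the probe's own, whichever is higher. The Liph probe passed the filter on dim probes only through the ADBAQ group. Its fitted log2 fold change was 4.51 (limma adjusted p = 0.00978). With normexp background correction it was 1.62 (adjusted p = 0.00585), a smaller change than that bound, which therefore holds for the processed signal only. Pla2g7, platelet-activating factor acetylhydrolase, rose by 1.16 ± 0.26 (adjusted p = 0.0311), a call lost when any 1 array other than vehicle replicate 2 was left out (highest adjusted p = 0.0788), and the value was 0.59 with normexp background correction. The call of Angptl4 was lost without ADBAQ replicate 1 or 2 or vehicle replicate 3 (highest adjusted p = 0.061). With spike-in scaling neither Lipc (-0.11) nor Angptl4 (-0.13) was called. Lpl, the lipase that APOC2 activates and APOC3 inhibits, averaged -2.22 ± 0.03 in ADBAQ and -3.03 ± 0.21 in vehicle (SD, n = 3 each). It rose by 0.81 ± 0.12 (limma adjusted p = 0.0114), but was not called with normexp background correction (0.24, adjusted p = 0.0548). Lpl too was named after its values were seen.

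None of 11 cholesterol efflux genes was called by limma, while 6 had an unadjusted p under 0.05. Abca1, which lipidates nascent HDL, averaged 0.23 ± 0.29 in ADBAQ and 0.70 ± 0.38 in vehicle (SD, n = 3 each; -0.46 ± 0.23, adjusted p = 0.204). Of 28 transcriptional regulators of apolipoprotein genes, 6 were lower and none higher, with a median of -0.30. Foxa3 changed by -1.32 ± 0.16 (limma adjusted p = 0.00665), Cebpa by -0.93 ± 0.13, Srebf2 by -0.91 ± 0.14 and Rxra, the common partner of nuclear receptors, by -0.86 ± 0.10. Hnf4a, the central hepatocyte regulator of these genes, had -0.30 ± 0.14 and was not called (limma adjusted p = 0.173). Its ADBAQ values all lay below its vehicle values, which held for 25.1% of all genes. With spike-in scaling Hnf4a was called higher (0.46, adjusted p = 0.026). Foxa3 was called lower on that scale too, whereas Cebpa, Srebf2 and Rxra were not called on it.

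**Figure D5:**
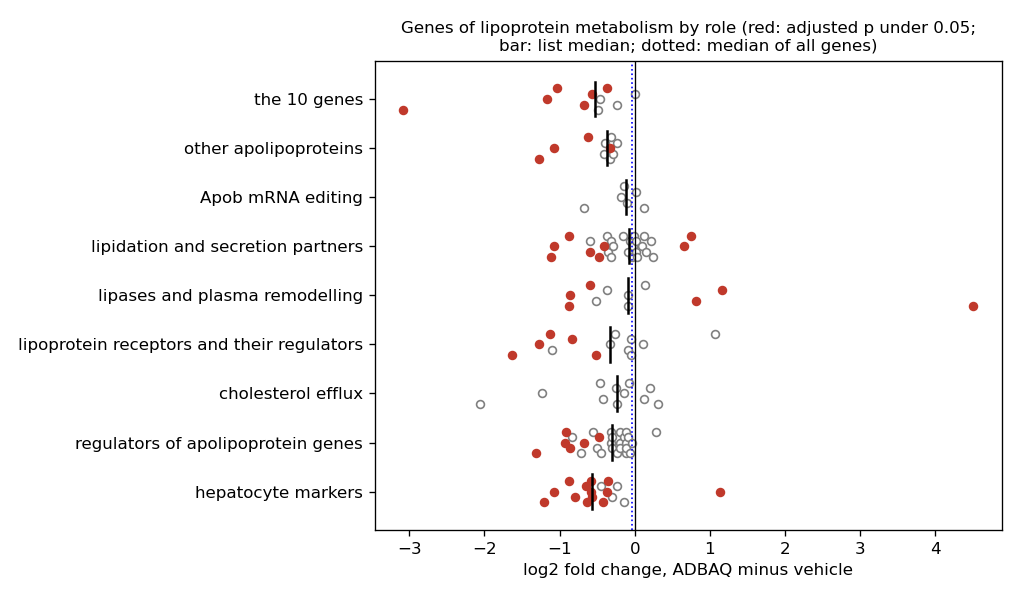
Log2 fold change, ADBAQ minus vehicle, of every tested gene by role (rows), with genes of adjusted p under 0.05 in red, the list median as a black bar and the median of all genes dotted. The 10 genes have a median of -0.53 and the hepatocyte markers -0.57.

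Markers of cell types were read beside these changes. Of 17 hepatocyte markers 12 were called lower and 1 higher, with a median of -0.57, which is close to that of the 10 genes. Their summed level, in multiples of the 75th percentile, was 7840 to 8540 in ADBAQ and 10800 to 11900 in vehicle. In bulk RNA, fewer cells of a type and less RNA per cell cannot be told apart. All marker values here are relative to the 75th percentile. On the scale of the spike-in controls the median of all genes lay 0.757 higher. That shift is larger than the -0.57 of the hepatocyte markers, so the direction of their median depends on the scaling. Of 13 Kupffer cell and macrophage markers, cells that also express Apoe, 1 (Lyz2) was called higher and none lower, with a summed level of 162 to 183 in ADBAQ and 141 to 168 in vehicle. Enterocytes also express Apoa4, Apob and Mttp. Of 8 tested enterocyte markers 2 were higher and 1 lower, with a median of -0.14. Their summed levels over 12 genes, which weigh the brightest genes most, were 15.2 to 20.6 in ADBAQ and 12.4 to 19.0 in vehicle. On ADBAQ replicate 1, whose sum was 15.2, Cdh17 read -3.61, against 2.04 to 3.41 on the other arrays. Vil1, Mep1a and Tm4sf20 were not above background on any array. Fabp2, the intestinal fatty acid binding protein gene, rose by 2.37 ± 0.35 (limma adjusted p = 0.0103). Slc15a1, a peptide transporter gene, stood at least 2.1-fold higher (adjusted p = 0.00204). Like Liph, Slc15a1 was kept by the filter on dim probes through the ADBAQ group alone, its vehicle signal being too dim. It is counted with Fabp2 among the 2 higher markers, so that count rests in part on this way of filtering. Anpep, an aminopeptidase gene, fell by 0.87 ± 0.13 (adjusted p = 0.0117). In the macrophage list Lyz2 rose by 0.88 ± 0.14 (adjusted p = 0.0122). Of 9 cholangiocyte markers 3 were called higher and 1 lower, with a median of 0.82. Their summed level was 3.26 to 4.96 in ADBAQ and 2.09 to 2.67 in vehicle, without overlap. Epcam, the brightest of them and called higher, weighs most in that sum (mean 0.92 in ADBAQ and 0.1 in vehicle). None of 6 endothelial cell markers was called by limma, and 2 had an unadjusted p under 0.05. Their summed level was 30.8 to 35 in ADBAQ and 37.4 to 41.3 in vehicle, also without overlap. Kdr, by far the brightest of them, makes up most of that sum. It averaged 4.76 in ADBAQ and 5.04 in vehicle and was not called (limma adjusted p = 0.0842). The part of these markers in the changes of the 10 genes was not tested.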

How the data were processed

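Liver RNA of 6 rats was measured on 1-colour Agilent arrays. Per the file headers, signals were extracted with Agilent Feature Extraction 10.7.1.1 (10.7 per the submitters' processing notes), and the array was designed on rat build rn4. Intensity values stand in the deposited scanner files, of which the processed signal has background removed, and flags of the kind other (above background, saturated, outlier). The deposited series table holds the authors' ratio of the processed signal to the array's 75th percentile, linear and not centred. This was found by setting it against the scanner values, from which it differed by at most 0.003693 on the log2 scale. Its column medians were 0.093, 0.0971 and 0.0952 for ADBAQ and 0.0967, 0.097 and 0.0983 for vehicle.

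RefSeq accessions gave names to 27447 probes and left 34210 unnamed. RefSeq sequences and gene order are from GRCr8, so no probe positions are given. Log2 processed signal minus the 75th percentile was fitted with limma 3.58.1 in R 4.3.3 over the 38695 probes that in ADBAQ, in vehicle or in both were well above background on each of the 3 arrays. A gene is its probe with the highest mean signal, and SEs are those of eBayes. Spots flagged as outliers, at most 2 on an array, were dropped. The procedure was tested on simulated data, and permutation tests used scipy 1.17.1.

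The treatment protocol describes separate animals. The members and lists were chosen with earlier results of these data known. Named are all members, up to 4 called genes of each list by size of change, and Lipc, Abca1, Hnf4a, Apobec1 and P4hb whatever their result; 1 gene the rule names is not reported here. Alternatives were normexp (offset 50, on the median signal because the mean is not in the files used), quantile normalization, scaling to 8 spike-in probes, no filter or a filter over all 6 arrays, eBayes with trend and robust, the authors' series table, averaging the probes of a gene, the replicate block, and each array left out in turn. Lists not described above were those of stellate cells and fibroblasts (0 higher and 1 lower of 11; summed level 32.6 to 36.8 in ADBAQ and 35.2 to 47.3 in vehicle) and adipocytes (0 and 0 of 4, 1 with an unadjusted p under 0.05; 13.1 to 15.7 and 13.1 to 21.5). The ratios within an array and their alternatives were chosen after seeing the data.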

Additional observations from a re-analysis of the deposited data

How the results depend on the processing

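Over all genes, 2309 were called, 44.5% of them higher in ADBAQ. The count was 4041 with normexp background correction (34.6% higher), 9117 with scaling to the spike-in controls (97.9% higher), 3520 with no filter on dim probes (32.5% higher) and 983 with the replicate block, and between 929 and 1565 when 1 array was left out. Of the 10 genes, 6 were called, and between 4 and 7 under the alternatives, with 5 whenever 1 array was left out. Of the tested genes of the 7 lists, 29 were called, 45 with normexp, 70 with spike-in scaling and between 19 and 23 when 1 array was left out. Among the named genes, signs turned with spike-in scaling for Apoa1 (0.52), Apoa2 (0.26), Apoc2 (0.30), Abca1 (0.29), Apoc4 (0.42), Apob (0.08), Apoc1 (0.18), Apoe (0.38), Apoh (0.14), Pon1 (0.42), P4hb (0.66), Dgat2 (0.16), Surf4 (0.35) and Hnf4a (0.46), and with quantile normalization for Apoe (0.01) and P4hb (0.02). The sign of Mttp, near 0, turned without ADBAQ replicate 1 or 2 or vehicle replicate 3 (-0.13 to -0.01). Spike-in scaling adds the same amount to every gene of an array, so the order of the genes' changes stays the same. The causes of the other differences were not tested. Over 41 named genes and their alternatives, 527 of 614 values kept their direction and their side of the threshold. Same-numbered arrays had correlations of deviations between -0.029 and -0.005, so no pairing by replicate number was seen. These values cannot show how the rats were allotted. With the block, Apoa4, Apoa5, Apob and Apoc3 stayed called, and Apoc1 (adjusted p = 0.0555) and Apoe (adjusted p = 0.107) did not.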
